A study of Mus musculus with 24 samples.

Results

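The serotonin receptor genes measured here were Htr1a, Htr1b, Htr2a, Htr2c, Htr3a, Htr4, Htr5a, Htr6 and Htr7. These 9 genes were chosen by name, with earlier results of these data known, and all appear in the authors' deposited comparison tables. The count tables held 38355 genes, of which 16744 had enough reads to be tested over all libraries. The receptor genes Htr5b and Htr1f also appear in the deposited tables and are described apart from the 9. RNA with poly(A) tails was sequenced from the CA1 subfield of the hippocampus, dissected from C57BL/6J mice aged 3 to 5 months. Conditional knockout (cKO) mice carried the genotype Kat2a fl/fl; CamKII_alpha-cre+, and control mice carried Kat2a fl/fl, so both genotypes had the floxed alleles and the cKO mice alone the Cre transgene. The 24 libraries form 4 groups: 7 from cKO mice exposed to novelty for 15 min, 6 from naive cKO mice, 5 from control mice exposed to novelty for 15 min and 6 from naive control mice. Kat2a encodes a lysine acetyltransferase that acts on histones, and the series concerns its part in memory formation in the hippocampus. The CamKII alpha promoter is active in excitatory forebrain neurons. Interneurons, glia and vessel cells of the dissected tissue are thus outside the cells in which the Cre is meant to act. So are axon terminals that reach it from neurons outside the forebrain. The labels do not say that each library came from a different mouse, and p-values then measure the spread between libraries, which may be technical.

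Serotonin reaches the hippocampus through axons of neurons in the raphe nuclei of the brainstem and acts there on several receptor families. The families numbered 1 and 5 couple to Gi/o proteins, which inhibit adenylyl cyclase and open inwardly rectifying potassium channels, and the family numbered 2 couples to Gq/11 proteins, which activate phospholipase C. The receptors numbered 4, 6 and 7 couple to Gs proteins and stimulate adenylyl cyclase, whereas Htr3a encodes a subunit of a cation channel that serotonin opens directly. In CA1, the 5-HT1A receptor is known for hyperpolarising pyramidal neurons, and the 5-HT3 receptor is known from interneurons.

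The 250 bases before the transcript start of Htr1a, Htr1b, Htr2a and Htr2c are shown because these 4 genes were lower in cKO mice over both exposures, as described further on. The sequences are from RefSeq (GRCm38.p6), in the direction of transcription, with matches to the motifs searched in capitals. The windows were searched on both strands for GGGCGG (the GC box), CCAAT (the CCAAT box), TATAAA (the TATA box) and TGACGTCA (the cyclic AMP response element), motifs chosen after the results were seen. They lie at chr13:105443443-105443692 on the plus strand for Htr1a, chr9:81633833-81634082 on the minus strand for Htr1b, chr14:74640624-74640873 on the plus strand for Htr2a and chrX:146962263-146962512 on the plus strand for Htr2c.
Htr1a: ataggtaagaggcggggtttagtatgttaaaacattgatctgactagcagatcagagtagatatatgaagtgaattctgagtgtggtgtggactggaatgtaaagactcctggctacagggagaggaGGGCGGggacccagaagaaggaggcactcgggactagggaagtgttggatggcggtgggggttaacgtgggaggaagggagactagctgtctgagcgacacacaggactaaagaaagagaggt
Htr1b: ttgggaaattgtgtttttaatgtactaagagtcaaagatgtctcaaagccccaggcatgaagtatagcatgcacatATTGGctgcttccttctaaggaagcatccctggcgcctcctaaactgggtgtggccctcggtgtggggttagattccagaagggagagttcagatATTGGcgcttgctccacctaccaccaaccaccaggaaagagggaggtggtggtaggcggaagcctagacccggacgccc
Htr2a: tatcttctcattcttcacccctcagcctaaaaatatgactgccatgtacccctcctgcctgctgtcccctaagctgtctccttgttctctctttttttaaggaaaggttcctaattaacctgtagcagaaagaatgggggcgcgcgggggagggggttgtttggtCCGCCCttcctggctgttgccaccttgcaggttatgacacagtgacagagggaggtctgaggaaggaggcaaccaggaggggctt
Htr2c: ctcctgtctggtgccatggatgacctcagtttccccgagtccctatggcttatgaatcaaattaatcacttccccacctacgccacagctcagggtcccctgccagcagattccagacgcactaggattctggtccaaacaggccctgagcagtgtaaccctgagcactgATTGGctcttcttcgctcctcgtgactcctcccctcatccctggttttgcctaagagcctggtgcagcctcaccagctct

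The Htr1a and Htr2a windows each held 1 GC box, in the Htr2a window on the opposite strand, and neither held CCAAT. The Htr1b window held 2 CCAAT motifs and the Htr2c window held 1, all on the opposite strand (ATTGG), and neither held a GC box. None of the 4 windows held TATAAA or TGACGTCA. Of 32817 windows of the same length in the table, 32.7% held a GC box, 33.8% CCAAT, 12.4% TATAAA and 1.55% TGACGTCA. The 4 windows were 50.4 to 55.6% G and C, against a median of 52.4% over all windows. RefSeq places the start of Htr1b upstream of the interval in the authors' deposited table, and that of Htr2a inside it.

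Reads assigned to genes numbered 10700954 to 35754503 per library. Kat2a, the targeted gene, was lower in every cKO library, at 31.2 to 39.3 CPM (reads per 1000000 reads assigned to genes, with library sizes scaled by TMM) in the 13 cKO libraries and 56.0 to 70.3 CPM in the 11 control libraries. Its level in cKO tissue is that of all cells of the dissection. Markers of CA1 pyramidal neurons such as Wfs1, Mpped1 and Neurod6 had at least 1583 reads in every library. The summed level of the 7 CA1 markers was 1045 to 1169 CPM in cKO novelty libraries, 1048 to 1238 CPM in cKO naive libraries, 1235 to 1336 CPM in control novelty libraries and 1165 to 1401 CPM in control naive libraries. It was thus lower in cKO mice, without overlap after novelty. In bulk tissue, fewer cells of a type and less RNA per cell cannot be told apart. The raphe markers Slc6a4 and Fev were at 0 in 14 and 13 of the 24 libraries. Tph2, of the same list, had 7 to 50 reads per library.

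All 9 receptor genes had enough reads to be tested in each of the 7 comparisons. Htr2c and Htr1a had the most reads, with means of 1043 and 893 per library, and Htr1b and Htr6 the fewest, with 57.7 and 59.5. Levels between genes were compared per kilobase of exon, counting exon bases inside the gene interval given by the authors' deposited table. On that scale the mean over 24 libraries was 10.3 CPM per kb for Htr1a, 6.61 for Htr3a, 5.79 for Htr2c, 4.31 for Htr5a, 3.33 for Htr2a, 2.84 for Htr7, 2.53 for Htr4, 2.31 for Htr1b and 1.29 for Htr6. Htr1a exceeded Htr3a in 22 of 24 libraries, and Htr1b exceeded Htr6 in 23. The order was less firm in the middle: Htr3a exceeded Htr2c in 16 libraries, Htr2a exceeded Htr7 in 16, Htr7 exceeded Htr4 in 14 and Htr4 exceeded Htr1b in 16. The range over libraries overlapped for every pair of neighbours in this order. For Htr1b the deposited interval spans 1273 bases, so its per-kilobase level rests on a short stretch. Of these bases, 852 are also exon of a gene on the other strand, and whether reads there were counted for Htr1b is not known. If they were not, its level per kilobase is understated, so its place in the order is uncertain. Of the exon bases annotated in GENCODE M21, the intervals hold 2971 of 5606 for Htr2a and 1273 of 4724 for Htr1b. The places of both genes in the order thus also depend on the length taken.

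**Figure D1:**
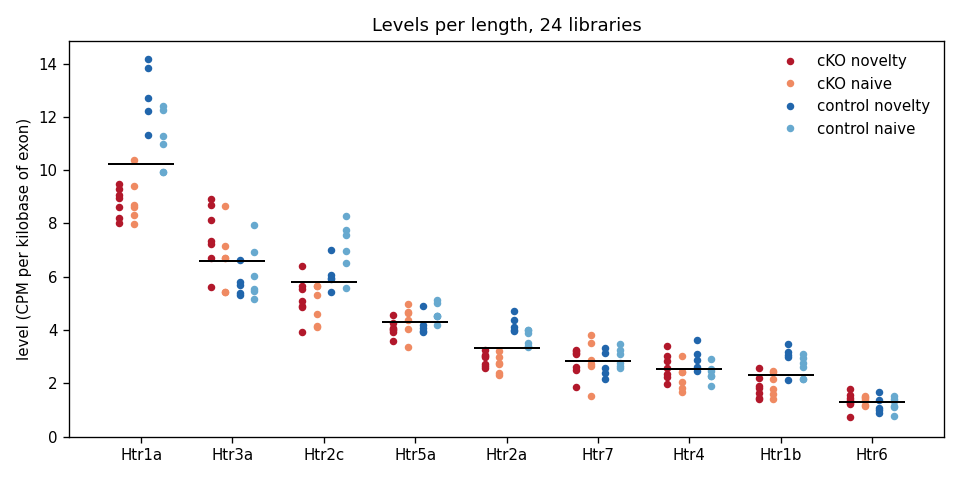
Level per kilobase of exon (CPM per kb, vertical axis) of the 9 receptor genes in each of 24 libraries, coloured by group, with the mean over libraries as a black line. Htr1a had the highest mean at 10.3 CPM per kb and Htr6 the lowest at 1.29, and neighbouring genes overlap in range.

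The first question of the design is which genes depend on Kat2a. Averaged over both exposures, Htr1a, Htr1b, Htr2a and Htr2c were lower in cKO than in control CA1, and no receptor gene was higher (edgeR's quasi-likelihood test, adjusted p below 0.05 over all 16744 genes). The mean levels in cKO libraries were 74.2% of those in control libraries for Htr1a, 68.6% for Htr1b, 71.6% for Htr2a and 76.3% for Htr2c. These 4 of 9 genes stand beside 6.32% of all tested genes that were lower, and the 0 of 9 that were higher beside 5.72%. As the 9 genes were chosen with earlier results of these data known, these shares are a description and not a test. Htr5b and Htr1f, outside the 9, did not pass. The median log2 fold change over the 9 genes was -0.12, against 0.01 over all tested genes. The 3 genes for Gs-coupled receptors, Htr4, Htr6 and Htr7, and the Gi/o-coupled Htr5a did not pass.

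**Figure D2:**
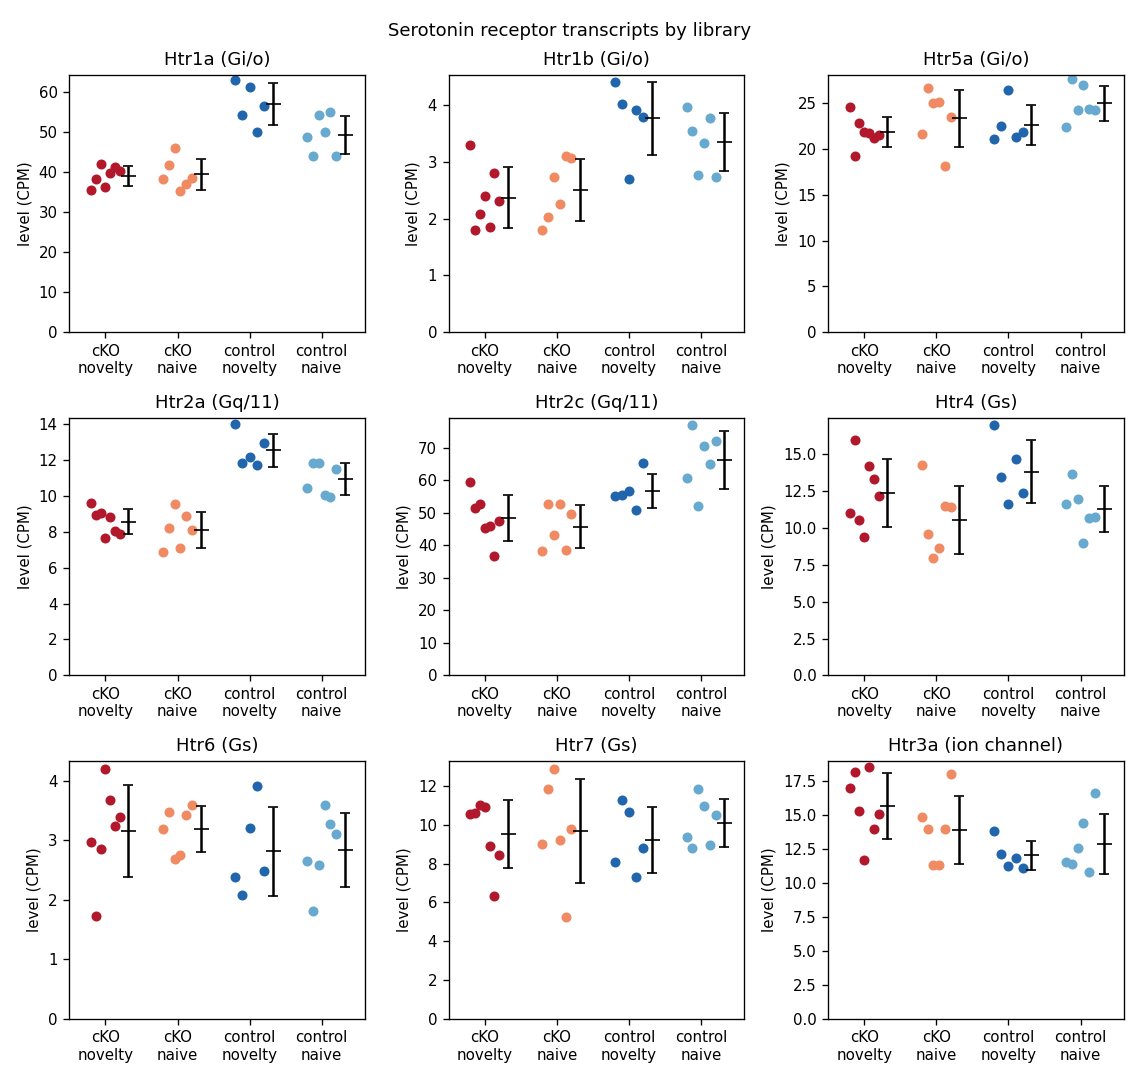
Level (CPM, vertical axis from 0) of each receptor gene in every library, by group in the order cKO novelty, cKO naive, control novelty and control naive, with mean and SD as black bars. All 13 cKO libraries lie below all 11 control libraries for Htr2a, and 12 of 13 do for Htr1a. The share of all genes split in this way was not counted.

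Htr1a, at 13:105443693-105448133 on the plus strand (GRCm38), encodes the 5-HT1A receptor. In novelty-exposed mice its level was 35.5 to 42.0 CPM in the 7 cKO libraries, with a median of 39.6 CPM, and 50.1, 54.1, 56.4, 61.3 and 62.9 CPM in the 5 control libraries. The groups did not overlap. In naive mice it was 35.3 to 46.0 CPM in the 6 cKO libraries, with a median of 38.3 CPM, and 44.0 to 55.0 CPM in the 6 control libraries. Here 5 of 6 cKO libraries lay below every control library. The log2 fold change, cKO over control, was -0.55 ± 0.06 (SE) after novelty (edgeR adjusted p = 0.000201) and -0.32 ± 0.07 in naive mice (edgeR adjusted p = 0.0523, which missed the threshold). The naive value passed with other settings, among them DESeq2 (adjusted p = 0.00364), and in the authors' deposited table, made with DESeq2, it was -0.32 with an adjusted p of 0.00341. Over both exposures it was -0.44 ± 0.05 (edgeR adjusted p = 1.8e-06).

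Htr1b encodes the 5-HT1B receptor, which sits largely on axon terminals, and lies at 9:81631343-81632615 on the minus strand. After novelty it was 1.80 to 3.30 CPM in cKO libraries, with a median of 2.31 CPM, and 2.70, 3.78, 3.92, 4.02 and 4.40 CPM in control libraries. Here 5 of 7 cKO libraries lay below every control library. In naive mice it was 1.81 to 3.11 CPM in cKO libraries, with a median of 2.50 CPM, and 2.74 to 3.97 CPM in control libraries. The log2 fold change was -0.66 ± 0.16 after novelty (edgeR adjusted p = 0.0249) and -0.54 ± 0.11 over both exposures (edgeR adjusted p = 0.00228). In naive mice it was -0.41 ± 0.16 (edgeR adjusted p = 0.252), a difference that did not pass. The call after novelty was lost without control novelty library 1, 2 or 5 or cKO novelty library 5 (adjusted p = 0.0558 to 0.0793, log2 fold change -0.60 to -0.66). Of the 1273 exon bases taken as the length of Htr1b, 852 are also exon of a long noncoding gene on the other strand (ENSMUSG00000097466). The library kit does not mark strand, so reads from these bases cannot be told apart from those of that gene. That gene was counted at 2.16 to 3.84 CPM in cKO novelty libraries, 2.33 to 3.33 CPM in cKO naive libraries, 3.20 to 3.86 CPM in control novelty libraries and 2.77 to 4.96 CPM in control naive libraries.

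Htr5a, at 5:27841947-27855086 on the plus strand, encodes the third Gi/o-coupled receptor of the set. It averaged 21.9 ± 1.6 CPM in cKO novelty libraries, 23.3 ± 3.1 CPM in cKO naive libraries, 22.7 ± 2.2 CPM in control novelty libraries and 25.0 ± 1.9 CPM in control naive libraries (SD, n = 7, 6, 5 and 6). The groups overlapped. Its log2 fold change over both exposures was -0.07, with an interval of -0.18 to 0.03 (95% interval from the SE under a normal distribution, edgeR adjusted p = 0.422), so a fall of the size seen for Htr1a lies outside that interval.

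Htr2a encodes the 5-HT2A receptor and lies at 14:74640840-74706859 on the plus strand. After novelty it was 9.62, 9.05, 8.95, 8.83, 8.05, 7.90 and 7.67 CPM in cKO libraries and 14.0, 12.9, 12.2, 11.8 and 11.8 CPM in control libraries. In naive mice it was 9.53, 8.88, 8.22, 8.10, 7.09 and 6.89 CPM in cKO libraries and 11.9, 11.9, 11.5, 10.5, 10.1 and 9.98 CPM in control libraries. The groups did not overlap at either exposure, and all 13 cKO libraries lay below all 11 control libraries. The share of all genes split in this way over the 24 libraries was not counted. Genes lower in cKO without overlap made up 1.74% of those tested after novelty, where Htr1a and Htr2a were the 2 of 9 receptor genes of this kind, and 1.10% of those tested in naive mice, where Htr2a was the 1 of 9. The log2 fold change was -0.55 ± 0.08 after novelty (edgeR adjusted p = 0.000843), -0.43 ± 0.09 in naive mice (edgeR adjusted p = 0.0404) and -0.49 ± 0.06 over both (edgeR adjusted p = 3.99e-06). The naive call was close to its threshold: it was lost in 10 of 12 fits that left out 1 library, all but those without cKO naive library 3 or 5, with adjusted p = 0.0526 to 0.0887 and log2 fold changes of -0.38 to -0.46.

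Htr2c, at X:146962513-147197277 on the plus strand, encodes the 5-HT2C receptor, whose transcript is also abundant in the choroid plexus. After novelty it was 36.7 to 59.6 CPM in cKO libraries, with a median of 47.6 CPM, and 50.7, 55.2, 55.4, 56.7 and 65.2 CPM in control libraries. These groups overlapped. In naive mice it was 38.3, 38.5, 43.1, 49.5, 52.6 and 52.7 CPM in cKO libraries and 52.1, 60.6, 65.1, 70.7, 72.2 and 77.2 CPM in control libraries, and 4 of 6 cKO libraries lay below every control library. The log2 fold change was -0.22 ± 0.10 after novelty (edgeR adjusted p = 0.203), -0.53 ± 0.10 in naive mice (edgeR adjusted p = 0.0335) and -0.38 ± 0.08 over both (edgeR adjusted p = 0.0018). The naive call was lost in 8 of 12 fits that left out 1 library, those without control naive library 2, 4, 5 or 6 or cKO naive library 1, 3, 5 or 6, with adjusted p = 0.0586 to 0.0855 and log2 fold changes of -0.48 to -0.56.
The choroid plexus marker Ttr was 0.484 to 5.31 CPM in cKO novelty libraries, 0.947 to 5.79 CPM in cKO naive libraries, 1.02 to 11.8 CPM in control novelty libraries and 1.05 to 86.9 CPM in control naive libraries. The value of 86.9 CPM was control naive library 4, and without that library the naive log2 fold change of Htr2c was -0.51 (edgeR adjusted p = 0.069). The summed level of 7 choroid plexus markers was 21.9 to 32.9 CPM in cKO naive libraries and 21.2 to 111.8 CPM in control naive libraries. Of these markers, Kl alone was 18.4 to 24.9 CPM in cKO naive libraries and 18.9 to 24.9 CPM in control naive libraries. Except in control naive library 4, the sum thus mostly gives the level of Kl. Otx2 was at 0 in 12 libraries, Folr1 in 2 and Kcnj13 in 1.

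None of the genes for the Gs-coupled receptors passed for genotype. Htr4, at 18:62324204-62467802 on the plus strand, averaged 12.4 ± 2.3 CPM in cKO novelty libraries, 10.6 ± 2.3 CPM in cKO naive libraries, 13.8 ± 2.1 CPM in control novelty libraries and 11.3 ± 1.6 CPM in control naive libraries. Htr6, at 4:139061108-139075570 on the minus strand, averaged 3.15 ± 0.77 CPM in cKO novelty libraries, 3.19 ± 0.39 CPM in cKO naive libraries, 2.81 ± 0.74 CPM in control novelty libraries and 2.84 ± 0.63 CPM in control naive libraries. Htr7, at 19:35958734-36057507 on the minus strand, averaged 9.55 ± 1.75 CPM in cKO novelty libraries, 9.68 ± 2.67 CPM in cKO naive libraries, 9.22 ± 1.68 CPM in control novelty libraries and 10.1 ± 1.2 CPM in control naive libraries (SD, n = 7, 6, 5 and 6). Over both exposures the log2 fold change was -0.12 for Htr4, with an interval of -0.31 to 0.07, 0.18 for Htr6, with an interval of -0.06 to 0.42, and -0.02 for Htr7, with an interval of -0.25 to 0.21. At 19 to 91 reads per library, the interval of Htr6 spans 0 and leaves more room for a rise than for a fall.

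Htr3a, the gene for the channel subunit 5-HT3A, lies at 9:48899214-48911099 on the minus strand and moved the other way after novelty. It was 11.7, 13.9, 15.1, 15.3, 16.9, 18.1 and 18.6 CPM in cKO novelty libraries and 11.1, 11.3, 11.8, 12.1 and 13.8 CPM in control novelty libraries. Here 6 of 7 cKO libraries lay above every control library. In naive mice it was 11.3 to 18.03 CPM in cKO libraries, with a median of 14.0 CPM, and 10.8 to 16.6 CPM in control libraries, with a median of 12.1 CPM. The log2 fold change was 0.38 ± 0.10 after novelty (edgeR adjusted p = 0.0466), 0.11 ± 0.13 in naive mice (edgeR adjusted p = 0.763) and 0.24 ± 0.09 over both (edgeR adjusted p = 0.0643). The call after novelty was lost in 9 of 12 fits that left out 1 library, all but those without control novelty library 1 or cKO novelty library 3 or 4, with adjusted p = 0.0502 to 0.117 and log2 fold changes of 0.33 to 0.41.
The summed level of 9 markers of interneurons of the caudal ganglionic eminence, the class known for Htr3a, was 709 to 795 CPM in cKO novelty libraries and 743 to 846 CPM in control novelty libraries. Of these 9 markers, Cck and Lamp5 passed as lower in cKO after novelty, beside 2.40% of all tested genes. None was higher, beside 2.13%, and none was at 0 in any library. The part of these markers in the Htr3a value was not tested.

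By exposure, 4 of 9 receptor genes passed after novelty (Htr1a, Htr1b and Htr2a lower, Htr3a higher), beside 4.53% of all genes tested in that comparison, 2.40% lower and 2.13% higher. In naive mice 2 of 9 passed (Htr2a and Htr2c, both lower), beside 0.801% of all genes tested and 0.495% that were lower. In the authors' deposited table for naive mice, Htr1a, Htr2a and Htr2c had an adjusted p below 0.05, with log2 fold changes of -0.32, -0.41 and -0.51. In the authors' deposited table for novelty-exposed mice, Htr1a, Htr1b, Htr2a and Htr3a did, with log2 fold changes of -0.54, -0.61, -0.54 and 0.36. The fold changes of the deposited tables and of edgeR thus lay close together, and the calls differed for Htr1a in naive mice.

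**Figure D3:**
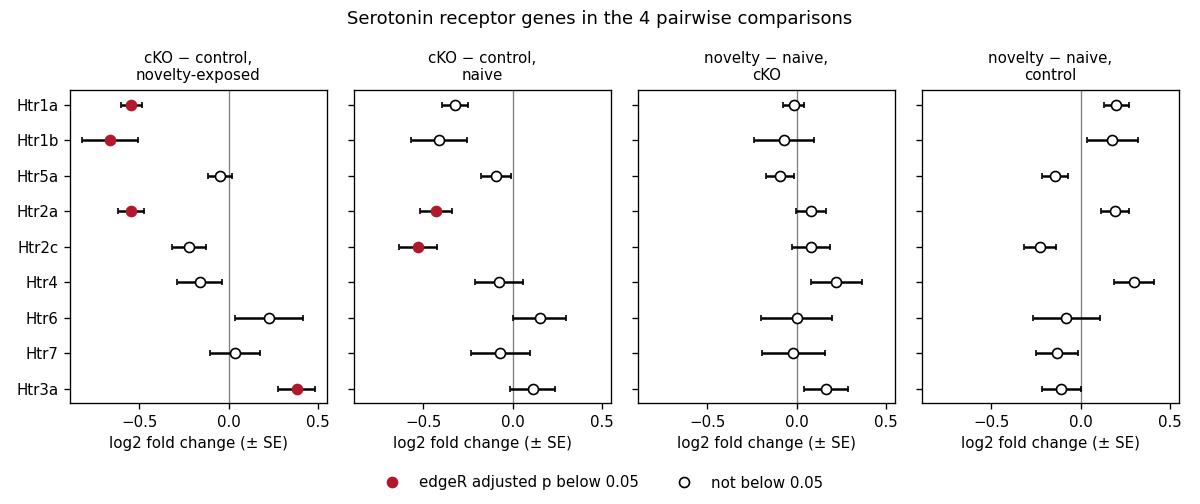
Log2 fold change (horizontal axis, ± SE) of the 9 receptor genes in cKO over control mice after novelty and in naive mice, and in novelty-exposed over naive mice of each genotype. Filled points passed (edgeR adjusted p below 0.05), which were 4 genes after novelty, 2 in naive mice and none for novelty in either genotype.

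Because the CA1 markers were lower in cKO libraries, each receptor was also expressed relative to their summed level, a comparison added after that difference was seen. The markers themselves differed by -0.19 on the log2 scale after novelty and by -0.15 in naive mice. Of the 7 markers, Wfs1 passed as lower after novelty, where 2.40% of all tested genes did, and Mpped1 over both exposures, where 6.32% did. None of the 7 markers was higher. Relative to them, Htr1a differed by -0.35 after novelty and -0.18 in naive mice, Htr1b by -0.49 and -0.29, Htr2a by -0.36 and -0.29, and Htr2c by -0.04 and -0.39. After novelty Htr1a and Htr2a still did not overlap between genotypes (exact two-sided permutation p = 0.00253 each, the smallest that 7 against 5 libraries allow). In naive mice the exact two-sided permutation p was 0.102 for Htr1a, 0.0303 for Htr2a and 0.0173 for Htr2c, and these groups overlapped. For Htr1b it was 0.0202 after novelty and 0.0909 in naive mice. On this scale Htr6 had differences of 0.35 after novelty (exact two-sided permutation p = 0.179) and 0.34 in naive mice (exact two-sided permutation p = 0.0238), with overlap at both exposures. These p-values are not adjusted for the 18 comparisons of this kind, and the share of all genes without overlap was not counted on this scale. Htr3a was higher by 0.56 after novelty on this scale, without overlap, whereas in CPM its groups overlapped. Dividing by markers that are lower in cKO libraries raises the value of every gene in them. The markers are of pyramidal neurons, while the 5-HT3 receptor is known from interneurons.

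Other marker lists also moved with genotype, and their part in the receptor results was not tested. Over both exposures, where 6.32% of all tested genes were lower and 5.72% higher, 3 of 5 oligodendrocyte markers were lower in cKO mice, and their summed level was 2876 to 5594 CPM in cKO novelty libraries, 3752 to 4795 CPM in cKO naive libraries, 4221 to 5122 CPM in control novelty libraries and 4523 to 4757 CPM in control naive libraries. Of 7 interneuron markers, Gad1, Gad2 and Pvalb were lower, with summed levels of 877 to 1041 CPM in cKO novelty libraries, 855 to 996 CPM in cKO naive libraries, 953 to 1105 CPM in control novelty libraries and 943 to 1110 CPM in control naive libraries. Of 6 dentate granule cell markers, C1ql2 and Stxbp6 were lower, and of 5 endothelial markers, Ly6c1 was. Of 6 subiculum and cortex markers, Ntng2 was higher (log2 fold change 0.20, edgeR adjusted p = 0.0341) and none lower, and of 9 markers of interneurons of the caudal ganglionic eminence, Cck and Lamp5 were lower. No marker passed over both exposures in the lists for CA2, CA3, thalamus, striatum, raphe, choroid plexus, astrocytes or microglia. Only 1 of 3 raphe markers and 4 of 7 choroid plexus markers had enough reads to be tested. No oligodendrocyte, interneuron, dentate granule cell or endothelial marker was at 0 in any library.

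Whether receptor transcripts respond to 15 min of novelty is the next question of the design. No receptor gene passed in cKO mice, where 2.41% of all tested genes passed, in control mice, where 1.22% did, or on average over genotypes, where 6.55% did. In control mice, Htr1a was 50.1 to 62.9 CPM in novelty libraries and 44.0 to 55.0 CPM in naive libraries, a log2 fold change of 0.20 ± 0.07 (edgeR adjusted p = 0.265). Htr2a in control mice had a log2 fold change of 0.19 ± 0.08 (edgeR adjusted p = 0.35) and Htr2c one of -0.23 ± 0.09 (edgeR adjusted p = 0.343). In cKO mice the log2 fold changes of the same genes were -0.02 for Htr1a, with an interval of -0.13 to 0.10, 0.08 for Htr2a, with an interval of -0.09 to 0.25, and 0.08 for Htr2c, with an interval of -0.13 to 0.29.

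Htr4 had the largest novelty value of the 9 genes in each genotype, short of the threshold. In cKO mice it was 9.38, 10.6, 11.02, 12.2, 13.3, 14.2 and 16.01 CPM in novelty libraries and 7.94, 8.66, 9.59, 11.4, 11.5 and 14.3 CPM in naive libraries. In control mice it was 11.6, 12.4, 13.5, 14.7 and 17.0 CPM in novelty libraries and 8.97, 10.7, 10.7, 11.6, 11.96 and 13.7 CPM in naive libraries. The groups overlapped in both genotypes. The log2 fold change, novelty over naive, was 0.22 ± 0.14 in cKO mice (edgeR adjusted p = 0.542), 0.30 ± 0.11 in control mice (edgeR adjusted p = 0.294) and 0.26 ± 0.10 on average (edgeR adjusted p = 0.12). Without cKO naive library 1, the average was 0.32 and passed (edgeR adjusted p = 0.0338). The novelty comparisons use the same libraries as the genotype comparisons, so their values are not independent of each other.

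The interaction asks whether the novelty response differs between genotypes. No receptor gene passed, and no gene of the 16744 did (edgeR), with 688 genes at an unadjusted p below 0.05, and 0 genes passed by DESeq2 or by limma-voom. The interaction was -0.22 ± 0.10 on the log2 scale for Htr1a (edgeR unadjusted p = 0.0298) and -0.25 ± 0.23 for Htr1b (edgeR unadjusted p = 0.274). It was 0.30 ± 0.15 for Htr2c (edgeR unadjusted p = 0.0563) and 0.27 ± 0.17 for Htr3a (edgeR unadjusted p = 0.135). All of these had an edgeR adjusted p near 1. That Htr1a, Htr1b and Htr3a passed after novelty and not in naive mice, and Htr2c the reverse, is thus not shown to be a difference between exposures.

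Between libraries of the same group, 2 receptor genes moved with markers of neighbouring regions. Deviations from group means were correlated between each receptor and the summed level of each of 15 marker lists, 135 relations in all, over 24 libraries with permutation within groups. Htr4 was low where 6 markers of subiculum and cortex were high, with Pearson's r = -0.84 and Spearman's rho = -0.86 (permutation p = 2e-05 for each, from 100000 permutations, adjusted p = 0.0027). Htr5a was high where they were high, with r = 0.68 (permutation p = 0.00103, adjusted p = 0.0486) and rho = 0.72 (permutation p = 0.00036, adjusted p = 0.0243). Without the 2 libraries farthest from the median of the markers, r was -0.76 for Htr4 and 0.65 for Htr5a. Htr4 also went with 6 dentate granule cell markers, with r = 0.67 (adjusted permutation p = 0.0486) and rho = 0.62 (adjusted permutation p = 0.0964), of which the second missed the threshold. The summed subiculum and cortex markers, none of which was at 0, were 170 to 268 CPM in cKO novelty libraries, 165 to 268 CPM in cKO naive libraries, 200 to 256 CPM in control novelty libraries and 221 to 287 CPM in control naive libraries. Their part in the novelty value of Htr4 was not tested. For Htr1a, Htr1b, Htr2a, Htr2c, Htr3a, Htr6 and Htr7 no list passed by both measures.

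**Figure D4:**
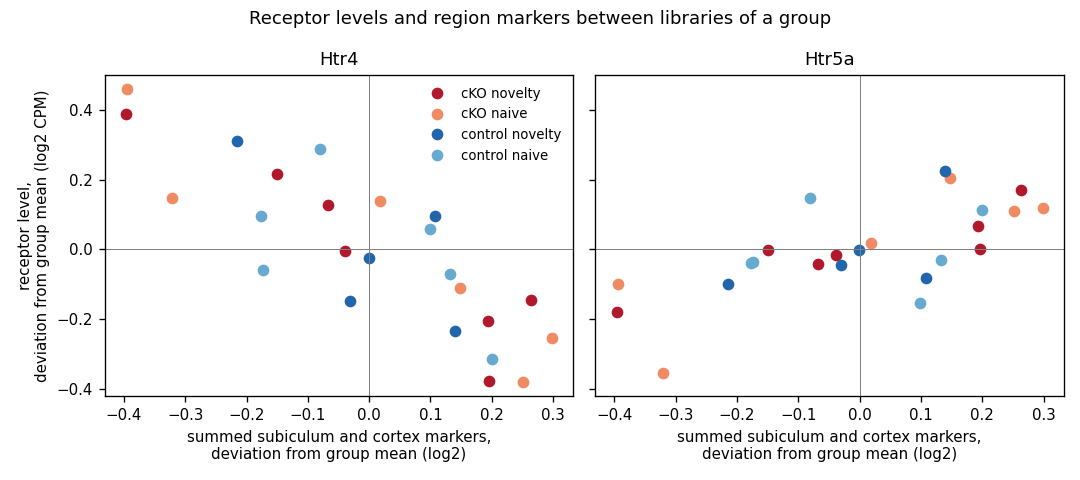
Deviation of Htr4 (left) and Htr5a (right) from their group mean (log2 CPM, vertical axis) against that of the summed level of 6 subiculum and cortex markers (log2, horizontal axis), 1 point per library, coloured by group. Pearson's r was -0.84 for Htr4 and 0.68 for Htr5a over 24 libraries.

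The genes whose level was most like that of each receptor over the 24 libraries were listed by Pearson's r of log2 CPM, as a description that includes the differences between groups. For Htr1a they were Habp4 (r = 0.85), Penk (0.85) and Oxr1 (0.84), and for Htr2a Penk (0.91), Oxr1 (0.85) and Wasl (0.85). Penk, the gene of proenkephalin, and Oxr1 thus stood near both. For Htr2c they were Etv1 (r = 0.91), Gnai1 (0.90) and Nxph1 (0.87), of which Gnai1 encodes an inhibitory G protein subunit. For Htr4 they were Lrrc10b (r = 0.87), Acvr1 (0.87) and Zbtb20 (0.85). Htr3a had the weakest likeness, with Capsl at r = 0.78. Among the receptors, Htr1a and Htr2a had r = 0.83 over the 24 libraries and 0.23 once group means were removed, while Htr5a and Htr7 had r = 0.60 and 0.62. The likeness of Htr1a and Htr2a thus lay mostly between groups, and that of Htr5a and Htr7 within them.

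Of 5 further receptor genes, Htr1d, Htr2b and Htr3b had too few reads to be tested. Htr5b averaged 5.29 CPM per kb over all libraries, between Htr2c and Htr5a, and Htr1f 0.94 CPM per kb, below Htr6. Neither passed in any of the 7 comparisons. For each gene the comparison with the smallest p was, for Htr5b, genotype in naive mice, with a log2 fold change of -0.25 ± 0.12 (edgeR adjusted p = 0.368), and, for Htr1f, genotype over both exposures, at -0.18 ± 0.10 (edgeR adjusted p = 0.266).

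Genes that act downstream of the receptors or handle serotonin were followed in 5 lists. Over both exposures, 3 of 8 genes of the Gi/o path were lower in cKO mice and none higher, beside 6.32% of all tested genes that were lower and 5.72% that were higher. These were Gnai1 (log2 fold change -0.12, edgeR adjusted p = 0.0204) and Gnao1 (-0.08, adjusted p = 0.0209), which encode inhibitory G protein subunits, and Kcnj3 (-0.18, adjusted p = 0.0123), a subunit of the potassium channel that these receptors open. Gnao1 did not pass with upper-quartile scaling (adjusted p = 0.0501) or with no filter on low counts (adjusted p = 0.0584). Of 7 genes of the Gq/11 path, Itpr1, the receptor for inositol trisphosphate, was lower (-0.14, adjusted p = 0.0332). It did not pass with upper-quartile scaling (adjusted p = 0.0520), with the block on library numbers (adjusted p = 0.0684) or in 9 of 24 fits that left out 1 library, those without cKO naive library 1, 2 or 3, cKO novelty library 5, control naive library 2 or 5 or control novelty library 1, 2 or 5 (adjusted p = 0.0504 to 0.0631). A further list of 11 genes held Gnas, Gnal and 7 adenylyl cyclases of the Gs path, and Gna12 and Gna13, whose G proteins are of another class. Of these, the adenylyl cyclases Adcy1 (-0.26, adjusted p = 0.00662) and Adcy2 (-0.13, adjusted p = 0.00575) were lower, and Adcy6 was higher (0.16, adjusted p = 0.0184). After novelty alone, Kcnj3 (-0.19), Adcy1 (-0.38) and Adcy2 (-0.18) were lower and Adcy6 (0.23) higher, and in naive mice no gene of the 3 coupling lists passed. Genes lower after novelty made up 2.40% of all tested, and genes higher 2.13%. With the block on library numbers, Kcnj3 (adjusted p = 0.0780), Adcy2 (adjusted p = 0.0906) and Adcy6 (adjusted p = 0.0740) did not pass after novelty. Kcnj3 after novelty also did not pass with upper-quartile scaling (adjusted p = 0.0546), with library numbers as a covariate (adjusted p = 0.0597), with all libraries in 1 fit (adjusted p = 0.106) or in 9 of 12 fits that left out 1 library, all but those without cKO novelty library 3 or 7 or control novelty library 3 (adjusted p = 0.0501 to 0.128). Without control novelty library 1 or 2, Adcy2 had an adjusted p of 0.0582 to 0.0612. Genes short of the threshold included Gnaq (-0.11, adjusted p = 0.0676) and Gnas (-0.09, adjusted p = 0.0705) over both exposures and Adcy3 (0.16, adjusted p = 0.0697) after novelty.

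The largest change among the 19 receptor partners was that of Rgs4, which encodes a regulator that speeds the shut-off of Gi/o and Gq proteins. Rgs4 was 172 to 220 CPM in cKO novelty libraries and 225 to 257 CPM in control novelty libraries, and 136 to 196 CPM in cKO naive libraries and 210 to 250 CPM in control naive libraries. The genotypes did not overlap at either exposure. Genes lower in cKO without overlap made up 1.74% of those tested after novelty and 1.10% in naive mice. Its log2 fold change was -0.34 ± 0.07 after novelty (edgeR adjusted p = 0.0103), -0.46 ± 0.08 in naive mice (edgeR adjusted p = 0.016) and -0.40 ± 0.05 over both (edgeR adjusted p = 3e-05). After novelty its adjusted p was 0.0520 with the block on library numbers. Dlg4, the postsynaptic scaffold protein PSD-95, was lower after novelty (-0.15, edgeR adjusted p = 0.0471) and was the only other partner that passed. That call was lost in 9 of 12 fits that left out 1 library, all but those without cKO novelty library 3 or 6 or control novelty library 2 (adjusted p = 0.0511 to 0.105), and with upper-quartile scaling, no filter, the block and all libraries in 1 fit (adjusted p = 0.0589, 0.0585, 0.0622 and 0.0660). Of the 19 partners, 2 were lower after novelty, beside 2.40% of all tested genes, and 1 in naive mice, beside 0.495%. Over both exposures 1 of 19 was lower, beside 6.32%, so that count is not set apart from the share. The median over the 19 partners was 0.00 over both exposures.

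Of 12 genes that make, carry or break down serotonin, 8 were tested, and Tph1, Slc6a4, Slc18a1 and Fev had too few reads. Aldh2, a mitochondrial aldehyde dehydrogenase, was higher in cKO mice over both exposures (0.17, edgeR adjusted p = 0.0321) and after novelty (0.21, edgeR adjusted p = 0.0344). Over both exposures it did not pass with no filter on low counts (adjusted p = 0.0605) or without cKO naive library 5 or 6, cKO novelty library 6, control naive library 3 or control novelty library 2 or 3 (adjusted p = 0.0509 to 0.0707). After novelty it did not pass with the block (adjusted p = 0.0837), with all libraries in 1 fit (adjusted p = 0.104) or without cKO novelty library 4 or 7 or control novelty library 1, 2, 3 or 5 (adjusted p = 0.0508 to 0.0874). The monoamine oxidase gene Maoa had a value of -0.13 for novelty on average (edgeR adjusted p = 0.0869), which did not pass. On average over genotypes, the vesicular transporter gene Slc18a2 (0.28, edgeR adjusted p = 0.0349) and Gnai3 (0.18, edgeR adjusted p = 0.00308) were higher after novelty, and Plcb2, a phospholipase C, was lower (-0.32, edgeR adjusted p = 0.0227). They were 1 of 8, 1 of 8 and 1 of 7 tested genes of their lists, and 0 of the 11 of the Gs list and 0 of the 19 partners passed. Of all tested genes, 6.55% passed, so these few calls are not set apart from that share. Slc18a2 did not pass with upper-quartile scaling (adjusted p = 0.0515), with the block (adjusted p = 0.0540) or in 11 of 24 fits that left out 1 library, those without cKO novelty library 2 or 7, cKO naive library 2, 3 or 6, control novelty library 1 or 5 or control naive library 3, 4, 5 or 6 (adjusted p = 0.0508 to 0.0788). Without control novelty library 2 or control naive library 4, Plcb2 had an adjusted p of 0.0513 to 0.0685. None of the 5 lists had a gene that passed for novelty within 1 genotype.

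**Figure D5:**
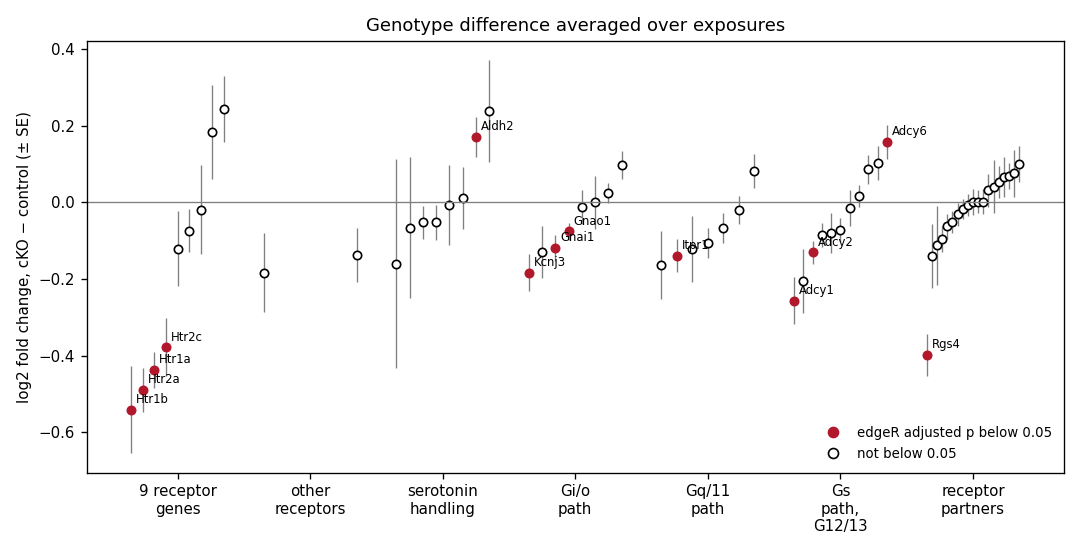
Log2 fold change of cKO over control mice averaged over exposures (vertical axis, ± SE) for the 9 receptor genes and for the tested genes of 6 lists along the horizontal axis, filled and named where the edgeR adjusted p was below 0.05. The 4 receptor genes that passed lie at -0.38 to -0.54, and of the listed genes Rgs4 lies at -0.40.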

How the data were processed

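The authors deposited raw read counts per gene and library (whole numbers, not normalized), and 4 tables of pairwise comparisons, for which the series names DESeq2. By their headers, the deposited tables give a mean normalised count (a signal), a log2 fold change and SE, and raw and adjusted p-values. STAR 2.3.0, HTSeq and GRCm38.p2 are named without roles in the submitters' processing notes, and no source used here gives the annotation release or strand setting. The TruSeq kit does not mark strand.

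All genes were tested with edgeR 4.0.16 (R 4.3.3), a robust quasi-likelihood F test with TMM, p-values adjusted by Benjamini-Hochberg over all genes tested, after filterByExpr (minimum count 10). A gene passed at an adjusted p below 0.05. SEs are the log2 fold change divided by the root of F. Pairwise comparisons used their own groups, and a fit over 24 libraries gave the averages and the interaction. Alternatives were size factors (RLE), upper-quartile scaling, no filter, DESeq2 1.42.0, limma-voom (3.58.1), a block or covariate on library numbers, all libraries in 1 fit, and leaving out each library. Scripts were tested on simulated data.

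The receptor genes and all lists were chosen with earlier results of these data known. Each receptor gene is named, together with listed genes that passed and up to 3 per list with the smallest p. Exon lengths come from GENCODE M21. Log2 CPM used a prior count of 2. Library numbers were shared between groups, but only 3 of 22 pairs of same-numbered libraries had deviations correlated above 0.1, so the numbers were not taken to pair mice. Protein sequences were not used here. Counts limit precision most for Htr1b (24 to 141 reads per library) and Htr6 (19 to 91).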

Additional observations from a re-analysis of the deposited data

Results flagged for a closer look

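In each group, the highest and the lowest library were compared with the rest by Dixon's test for 64 combinations of gene and group, of which chance alone flags about 1 in 20. Htr5a in control novelty library 3 was 26.4 CPM, against 21.1 to 22.6 CPM in the other 4 libraries of that group. Ttr, the choroid plexus marker, was 11.8 CPM in control novelty library 1, against 1.02 to 2.85 CPM in the others of that group, and 86.9 CPM in control naive library 4, against 1.05 to 3.83 CPM in the others. Htr2c was 55.2 CPM in the control novelty library and 70.7 CPM in the control naive library with these Ttr values, both within the range of their groups.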

How the results depend on the processing

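Over both exposures, Htr1a, Htr1b, Htr2a and Htr2c passed in every alternative and every fit that left out 1 library. Leaving out each library in turn, 2 to 4 receptor genes passed for genotype after novelty, against 4 with all libraries, 0 to 2 for genotype in naive mice, against 2, and 0 to 1 for novelty on average, against 0. With a replicate block on library numbers, 1 receptor gene passed in naive mice, since Htr2a had an adjusted p of 0.0532. Same-numbered libraries share only the number. No filter on low counts took Htr2c in naive mice to an adjusted p of 0.058. Htr3a after novelty had an adjusted p of 0.0637 with limma-voom, 0.0596 with the block and 0.0795 with all libraries in 1 fit, and over both exposures it passed with DESeq2 (0.047). Htr1a in naive mice passed in 6 alternatives. The cause of these changes was not tested.

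Over all genes, DESeq2 called 639 genes for novelty in cKO mice, 373 for novelty in control mice, 1155 for genotype after novelty and 457 in naive mice, against 393, 196, 733 and 131 with edgeR. The block called 207, 97, 398 and 70, and all libraries in 1 fit called 305 for novelty in control mice and 322 for genotype in naive mice.

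Values near 0 that had not passed changed sign. For novelty in cKO mice, Htr6 was 0.00187 with DESeq2, and Htr7 was 0.0087 with limma-voom, 0.0344 with the block and 0.0233 with library numbers as a covariate. Htr6 was 0.0125 for novelty in control mice with the block, and -0.0543 with the block and -0.0357 with the covariate for the interaction. Htr7 was -0.00596 for genotype after novelty with limma-voom and 0.00266 over both exposures with the block. Relative to the CA1 markers, Htr5a was 0.142 after novelty and 0.0404 in naive mice, Htr4 0.025 and 0.0367, and Htr7 0.0405 in naive mice. Leaving out 1 library gave ranges that crossed 0: for novelty in cKO mice, Htr1a -0.0429 to 0.0346, Htr1b -0.165 to 0.00308, Htr6 -0.0853 to 0.0919 and Htr7 -0.144 to 0.0787, for novelty in control mice, Htr6 -0.214 to 0.0406, for novelty on average, Htr6 -0.101 to 0.0191, for genotype after novelty, Htr5a -0.0776 to 0.0110 and Htr7 -0.0313 to 0.127, in naive mice, Htr7 -0.166 to 0.0555, over both, Htr7 -0.0687 to 0.0430. For the interaction these ranges were -0.157 to 0.0194 for Htr4, -0.0173 to 0.107 for Htr5a, -0.0401 to 0.205 for Htr6 and -0.0237 to 0.200 for Htr7.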
